A study of Mus musculus with 9 samples.

Results

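Small nucleolar RNAs (snoRNAs) and small Cajal body RNAs (scaRNAs) were followed in RNA that came down with an antibody to phosphorylated UPF1 (p-UPF1), in control precipitates made with rabbit IgG (rIgG) and in RNA that had not been immunoprecipitated. The members were chosen by name and by summed count: genes with a symbol starting Snord, Snora or Scarna and at least 10 counts over the Input and p-UPF1 IP libraries. They were 128 of the 54325 gene symbols in the table, with 81 C/D box snoRNAs (Snord), 38 H/ACA box snoRNAs (Snora) and 9 scaRNAs. Of 132 symbols with such a name, the 4 left out (Snord116l9, Snord116l14, Snord123 and Snora35) had 0 counts in all 9 libraries, and the members nearest the minimum, Snora20 and Scarna3a, each had a summed count of 22. The sum does not set Input against the p-UPF1 IP, but it is drawn from the same libraries.

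The cells were N2A, a mouse neuroblastoma line, and all 3 groups had received 200 nM okadaic acid, a phosphatase inhibitor, for 2 h. The groups were Input (no antibody), rIgG IP and p-UPF1 IP, with 3 libraries each of short RNA fragments left by RNase I. Total counts were 26023968, 25184464 and 29857955 in Input, 5312526, 6032142 and 6246110 in the p-UPF1 IP, and only 474491, 205177 and 79010 in the rIgG IP. A share of 3 counts was therefore 0.101 to 0.119 CPM (the count relative to its library total) in Input, 0.480 to 0.565 CPM in the p-UPF1 IP and 6.32 to 38.0 CPM in the rIgG IP, which covers counting error only. That share takes no TMM scaling. With the TMM scaling of the levels given below, the same 3 counts stood at 7.53 to 24.1 CPM in the rIgG IP. Because no source used here says that the replicates were separate cultures, p-values measure only the spread between these libraries.

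Box C/D snoRNAs guide ribose methylation of ribosomal and spliceosomal RNA and carry the proteins fibrillarin, Nop56, Nop58 and Snu13. Box H/ACA snoRNAs guide pseudouridylation with dyskerin (Dkc1), Nhp2, Nop10 and Gar1, and scaRNAs guide the same modifications on spliceosomal RNA in Cajal bodies. Most mammalian snoRNAs are cut out of introns of host genes, whereas a few, such as U8 and U13, are transcribed on their own and act in the processing of ribosomal RNA precursors.

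The classes differed in length and box motifs. The C/D members had a median length of 80 nt, and 79 of 81 held the D box CTGA in the last 20 bases, 56 held the C box core TGATGA in the first part of the RNA, and 54 held both. The H/ACA members had a median length of 133 nt, and 32 of 38 ended in ACANNN. Motifs were searched on the RNA strand only. Among 10681 other transcripts of 60 to 330 nt, 9.97% held the D box, 4.99% the C box core, 0.618% both and 1.78% the ACA ending. By position, 57 members lay in an intron of every host transcript, 63 overlapped an exon of some host transcript (often one that retains the intron), and 8 had no host gene on their strand. For 36 C/D and 19 H/ACA members, no 35-nt window was unshared with another gene, so that their counts depend on how the quantification divided reads.

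Members took a larger share of the p-UPF1 IP than of either other group. They made up 0.109%, 0.111% and 0.108% of the counts in Input, 0.170%, 0.306% and 0.363% in the rIgG IP, and 1.13%, 1.17% and 0.926% in the p-UPF1 IP. These shares did not overlap between groups. Members with at least 1 count numbered 125, 125 and 126 in Input, 101, 84 and 71 in the shallower rIgG IP libraries, and 128 in each p-UPF1 IP library. Scaled by TMM over the 9 libraries, C/D members summed to 1169 ± 23.4 CPM in Input, 2133 ± 434 CPM in the rIgG IP and 8740.0 ± 956 CPM in the p-UPF1 IP (mean ± SD, n = 3). H/ACA members summed to 119 ± 8.8, 260.3 ± 49.4 and 1004 ± 96.5 CPM in the same order, and Scarna members to 22.8 ± 0.8, 37.2 ± 11.9 and 170.0 ± 4.6 CPM.

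Summed over the members, C/D counts exceeded H/ACA counts by a like factor in each group, though this rested in part on a single member. The ratio of C/D to H/ACA counts was 10.3, 8.96 and 10.2 in Input, 7.58, 8.21 and 8.79 in the rIgG IP, and 8.89, 8.62 and 8.58 in the p-UPF1 IP. All rIgG IP and p-UPF1 IP libraries lay below the lowest Input library, and the p-UPF1 IP values fell within or just above the rIgG IP range. On the log2 scale the mean ratio differed by −0.17 between the p-UPF1 IP and Input, by 0.09 between the p-UPF1 IP and the rIgG IP, and by −0.26 between the rIgG IP and Input. Much of the C/D total came from Snord50b, which took 35.4%, 34.7% and 32.3% of C/D counts in the p-UPF1 IP. Snord50b and Snora75 were the most-counted C/D and H/ACA members of the p-UPF1 IP, though not of Input. With both left out of every group, the ratio was 9.80 ± 0.787 in Input, 5.80 ± 0.396 in the rIgG IP and 6.77 ± 0.184 in the p-UPF1 IP (mean ± SD, n = 3). No p is given for these ratios, because the members were chosen with results known.

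**Figure D1:**
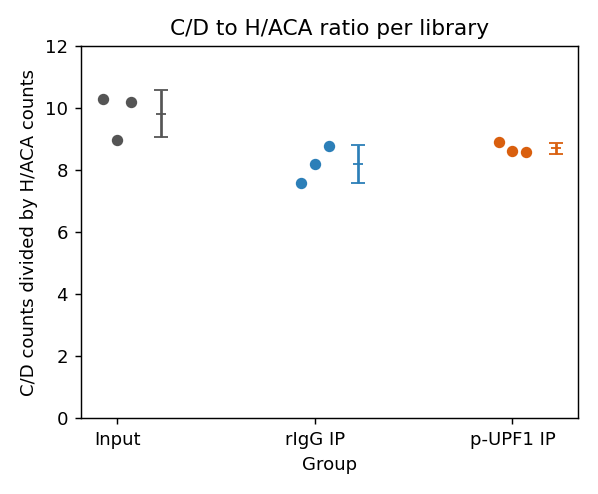
Counts of C/D members divided by counts of H/ACA members (vertical axis, no unit) in Input, rIgG IP and p-UPF1 IP, with a point per library and the mean ± SD beside them. The Input libraries sit between 8.96 and 10.3, above all libraries of the rIgG IP (7.58 to 8.79) and the p-UPF1 IP (8.58 to 8.89).

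In the p-UPF1 IP over Input, 62 of 81 C/D, 31 of 38 H/ACA and 5 of 9 Scarna members were higher by edgeR's quasi-likelihood test (log2 fold change above 1, Benjamini-Hochberg adjusted p under 0.05 over all genes), beside 17.2% of the 16919 genes tested. A single member, the C/D snoRNA Snord72, was lower, beside 26.5% of all genes. No H/ACA or Scarna member was called lower by edgeR or by DESeq2, and 1 of each was lower at an unadjusted p under 0.05. The median log2 fold change was 2.54 for C/D, 2.61 for H/ACA and 1.15 for Scarna members, against −0.42 for all genes tested. All 128 members passed the filter on low counts by definition, since the rule for members sets the same minimum over the same libraries. Of the members called higher, 3 C/D members and 1 H/ACA member had under 10 counts over the Input libraries and passed only through the p-UPF1 IP. The classes' medians were the same to 2 decimals with the 2 members at 0 in Input set to their bounds. Scaling by library totals instead of TMM shifted the median of all genes by 0.41 and changed the calls over all genes from 2915 higher and 4484 lower to 4109 and 3160. It moved the class medians by a like amount, to 2.94 for C/D and 3.02 for H/ACA.

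**Figure D2:**
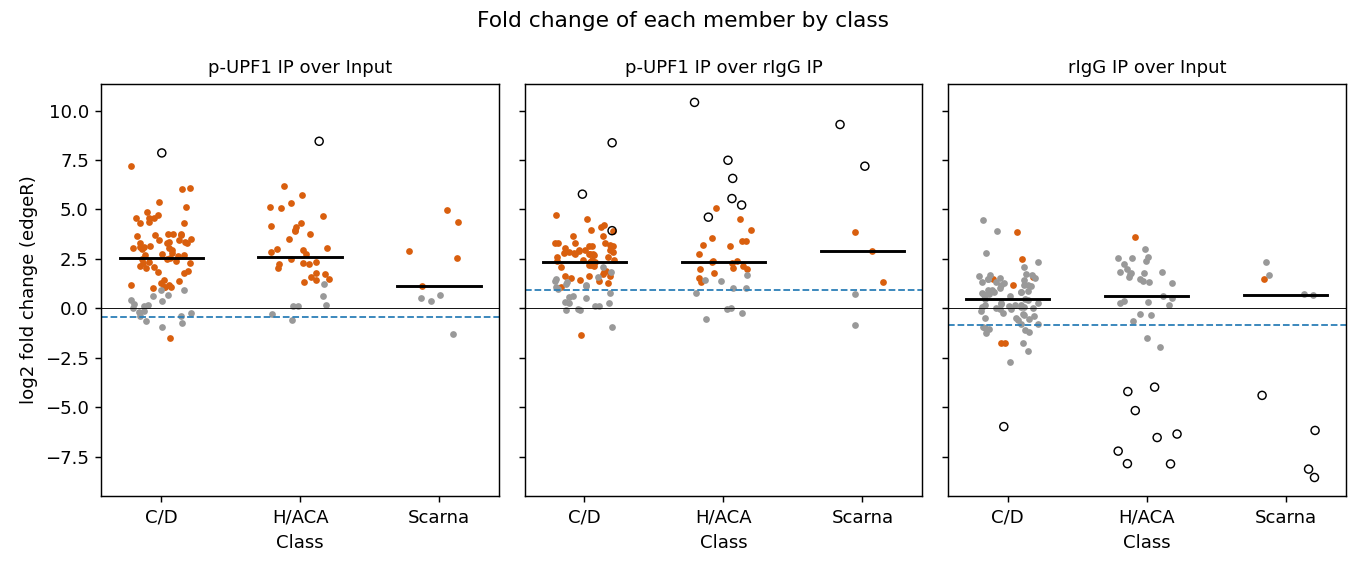
Log2 fold change (vertical axis, edgeR) of each member by class in the 3 comparisons, with called members in orange, the others in grey, class medians as black bars and the median of all genes tested as a dashed line (−0.42, 0.91 and −0.84 from left to right). Open circles are members at 0 in every library of a group, whose fitted value is no measure of size. In the p-UPF1 IP over Input the C/D and H/ACA medians lie at 2.54 and 2.61.

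Snord50b, from the host gene Snhg5, was the most abundant member of the p-UPF1 IP per length, at 41567 CPM per kb against 6301 CPM per kb for the next, Snord69. Its level was 42.6, 48.5 and 44.2 CPM in the Input libraries, 432, 928 and 618 CPM in the rIgG IP libraries and 3350, 3156 and 2472 CPM in the p-UPF1 IP libraries. The 3 groups did not overlap, and the rIgG IP lay between the others. Its log2 fold change was 6.03 ± 0.14 (SE) over Input (edgeR adjusted p = 7.52e-10), 2.44 ± 0.27 over the rIgG IP (edgeR adjusted p = 1.7e-07) and 3.85 ± 0.26 in the rIgG IP over Input (edgeR adjusted p = 1.51e-05). Its sequence has no unshared window, since transcripts of Snhg5 and other genes hold the same bases.

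Snord69, from the Gnl3 locus, was the most counted member in Input. It stood at 115, 112 and 122 CPM in Input, at 138, 71.0 and 40.1 CPM in the rIgG IP and at 533, 541 and 438 CPM in the p-UPF1 IP. All p-UPF1 IP libraries were above the others, while the rIgG IP spanned the Input values. The log2 fold change was 2.09 ± 0.10 over Input (edgeR adjusted p = 3.28e-08) and 2.62 ± 0.26 over the rIgG IP (edgeR adjusted p = 3.09e-08). Snord104 and Snord2 also rose over both controls, by a log2 fold change of 3.38 ± 0.10 and 3.74 ± 0.12 over Input and of 2.73 ± 0.31 and 2.86 ± 0.30 over the rIgG IP. Among the C/D members with the largest increases over Input was Snord7 (6.09 ± 0.23), which has fully unshared sequence. Snord116l12, a copy of the brain-expressed Snord116 cluster hosted by Snhg14, passed the filter on low counts only through the p-UPF1 IP and shares sequence windows with 70 genes, with most of its windows shared, so that no size over Input is given. It had 2, 2 and 1 counts in Input, 0 in each rIgG IP library and 69, 89 and 79 in the p-UPF1 IP, at least 3.04-fold higher than in the rIgG IP (against 3 counts over the group). Snord50a and Snora7a, chosen after their values were seen, had 0 counts in all Input libraries and were at least 44.8-fold and 69.5-fold higher in the p-UPF1 IP, against 3 counts over the group. Both are among the members counted as higher, and became members only through their p-UPF1 IP counts. Neither Snord50a nor Snora7a has a window unshared with another gene, so their counts, with the 0 in Input, depend on how the quantification divided reads. The counts of Snord69 and Snord2 carry the same limit, whereas Snord104 has fully unshared sequence.

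Snord72, in an intron of the ribosomal protein gene Rpl37 and with fully unshared sequence, went the other way. It was at 101, 95.7 and 111 CPM in Input, 27.6, 42.6 and 16.0 CPM in the rIgG IP and 33.1, 42.9 and 34.9 CPM in the p-UPF1 IP. Both IPs were below Input in every library and overlapped each other. The log2 fold change was −1.50 ± 0.10 in the p-UPF1 IP over Input (edgeR adjusted p = 6.57e-07) and −1.77 ± 0.28 in the rIgG IP over Input (edgeR adjusted p = 0.00984), and 0.55 ± 0.33 between the IPs, p-UPF1 over rIgG (edgeR adjusted p = 0.24). The call in the rIgG IP over Input was lost by transcripts (−2.54, edgeR adjusted p = 0.0554). It was also lost without rIgG IP replicate 1 (−1.65, edgeR adjusted p = 0.0913).

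Among the snoRNAs named here that act in ribosomal RNA processing, some were called higher over Input and others were not called. They were not tested as a group. Snord118 (U8), needed for large-subunit ribosomal RNA, was at 40.7, 41.2 and 41.6 CPM in Input, 108, 80.5 and 80.2 CPM in the rIgG IP and 37.7, 33.1 and 24.8 CPM in the p-UPF1 IP. It was highest in every rIgG IP library and lowest in every p-UPF1 IP library, with a log2 fold change of −1.33 ± 0.26 over the rIgG IP (edgeR adjusted p = 0.000391), the only C/D member called lower there. By transcripts it was not called (−0.829, edgeR adjusted p = 0.0999). Over Input the value was −0.40 ± 0.13 (edgeR adjusted p = 0.0193), short of the fold threshold, and 0.01 with scaling by library totals. Snord13 (U13), also transcribed on its own, was at 17.6, 21.9 and 20.9 CPM in Input and 231, 249 and 206 CPM in the p-UPF1 IP, without overlap, a log2 fold change of 3.48 ± 0.11 (edgeR adjusted p = 2.53e-09). Snord22 (U22), which acts in small-subunit processing, was at 50.0, 45.0 and 50.7 CPM in Input and 45.7, 55.4 and 47.5 CPM in the p-UPF1 IP, which overlapped (log2 fold change 0.00 ± 0.09). The U17 RNAs Snora73a and Snora73b rose over Input, by 1.72 ± 0.30 and 2.26 ± 0.21 on the log2 scale, and had −0.53 ± 0.54 and −0.05 ± 0.51 over the rIgG IP, where neither was called and each had under 10 counts. Snord22 has no unshared 35-nt window, and Snora73a has 17.5% unshared, against 64.9% in Snora73b, 70.3% in Snord118 and 100% in Snord13.

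The copies of U14, another snoRNA of small-subunit processing, differed although 3 of them share the host gene Hspa8. Snord14e was at 14.8, 13.6 and 15.6 CPM in Input and 52.5, 57.4 and 51.6 CPM in the p-UPF1 IP, and Snord14d at 16.9, 17.2 and 17.4 CPM and 8.54, 13.04 and 11.5 CPM. Scaled by TMM, Snord14e was higher in every p-UPF1 IP library and Snord14d lower, without overlap, though Snord14d overlapped relative to library totals. Their log2 fold changes were 1.85 ± 0.09 (edgeR adjusted p = 3.27e-08) and −0.65 ± 0.12 (edgeR adjusted p = 0.000878, short of the fold threshold), Snord14c had 0.16 ± 0.10, and Snord14a, hosted by Rps13, rose by 2.37 ± 0.30. The difference between copies was not tested, and none of the 4 has an unshared 35-nt window.

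Sequences of C/D members that were highest (Snord50b), called lower (Snord72) and different between copies (Snord14d, Snord14e) are printed 5′ to 3′ from GENCODE M21 (GRCm38), with the C box core TGATGA and the D box CTGA in capitals. Snord50b is at chr9:88521797-88521868 (minus strand), Snord72 at chr15:5118404-5118484 (plus), Snord14d at chr9:40803995-40804080 (plus) and Snord14e at chr9:40804748-40804837 (plus). Snord72 lacks the exact C box core in its first part, as do 25 of the 81 C/D members.
Snord50b: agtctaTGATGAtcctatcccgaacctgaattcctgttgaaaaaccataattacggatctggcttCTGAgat
Snord72: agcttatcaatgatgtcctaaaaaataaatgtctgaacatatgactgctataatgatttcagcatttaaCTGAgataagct
Snord14d: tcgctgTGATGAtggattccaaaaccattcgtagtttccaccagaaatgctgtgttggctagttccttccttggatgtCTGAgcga
Snord14e: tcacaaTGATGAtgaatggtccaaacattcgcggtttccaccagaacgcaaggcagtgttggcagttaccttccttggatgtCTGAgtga

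Among H/ACA members, Snora75 from the Ncl locus was the most abundant per length in the p-UPF1 IP, at 1156 CPM per kb against 32.3 CPM per kb in Input. It was at 3.40, 4.45 and 5.04 CPM in Input, 7.53, 4.74 and 0 CPM in the rIgG IP and 169, 150 and 143 CPM in the p-UPF1 IP. The p-UPF1 IP was above every other library, with a log2 fold change of 5.13 ± 0.14 over Input (edgeR adjusted p = 1.19e-09). The rIgG IP libraries held 3, 1 and 0 counts of it, so that it passed the filter there only through the p-UPF1 IP, and no size over that control is given. Snora3, from the Rpl27a locus, was at 2.22, 2.53 and 2.46 CPM in Input, 17.6, 52.1 and 24.1 CPM in the rIgG IP and 65.8, 67.7 and 53.0 CPM in the p-UPF1 IP. Its rIgG IP libraries were all above Input and all below the p-UPF1 IP. The log2 fold change was 4.66 ± 0.13 over Input (edgeR adjusted p = 1.35e-09) but 1.35 ± 0.34 over the rIgG IP (edgeR adjusted p = 0.00428). Snora28, Snora5c and Snora68 rose over Input by 6.20 ± 0.14, 5.74 ± 0.30 and 5.34 ± 0.16 on the log2 scale. Snora17, Snora16a and Snora62 rose by 5.10 ± 0.15, 2.95 ± 0.09 and 2.49 ± 0.10 on the same scale. Snora75, Snora3, Snora28, Snora5c, Snora68 and Snora16a have no window unshared with another gene, so their counts depend on how the quantification divided reads. Snora17 has 78.57% of its windows unshared, and Snora62 has fully unshared sequence.

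The H/ACA sequences of Snora75 (chr1:86351169-86351301, minus strand) and Snora3 (chr7:109520120-109520251, plus strand) are printed from the same annotation, since Snora3 was called in the rIgG IP over Input and Snora75 was not (the difference between them was not tested), with the ACA near the 3′ end in capitals.
Snora75: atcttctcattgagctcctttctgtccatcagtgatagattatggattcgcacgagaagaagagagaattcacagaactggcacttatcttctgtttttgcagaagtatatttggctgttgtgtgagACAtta
Snora3: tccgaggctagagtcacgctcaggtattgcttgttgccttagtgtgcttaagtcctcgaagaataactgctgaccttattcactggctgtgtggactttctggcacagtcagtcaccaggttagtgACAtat

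Among the scaRNAs, Scarna2, which guides modification of U2 RNA, had the most counts. Per length, Scarna17 (327 CPM per kb) and Scarna10 (157 CPM per kb) were above Scarna2 (147 CPM per kb) in the p-UPF1 IP, and Scarna9 (58.7 CPM per kb) was above it (24.5 CPM per kb) in Input. Scarna2 was at 9.62, 10.4 and 10.4 CPM in Input, 25.1, 37.9 and 24.1 CPM in the rIgG IP and 62.3, 54.8 and 64.9 CPM in the p-UPF1 IP, and the 3 groups did not overlap. Its log2 fold change was 2.55 ± 0.09 over Input (edgeR adjusted p = 5.69e-09) and 1.32 ± 0.30 over the rIgG IP (edgeR adjusted p = 0.0019). Scarna10 was at 2.36, 2.53 and 2.37 CPM in Input and 46.6, 54.5 and 52.4 CPM in the p-UPF1 IP, without overlap, a log2 fold change of 4.37 ± 0.10 (edgeR adjusted p = 5.2e-10). Scarna13 was at 3.31, 3.33 and 2.58 CPM in Input and 28.6, 22.6 and 19.9 CPM in the p-UPF1 IP, again without overlap, a log2 fold change of 2.92 ± 0.16 (edgeR adjusted p = 1.12e-07). Scarna17 and Scarna6 also rose over Input, by 4.97 ± 0.17 and 1.15 ± 0.32, though Scarna6 was not called by transcripts. Scarna9 (0.37 ± 0.18), Scarna3a (0.67 ± 0.76), Scarna8 (0.55 ± 0.59) and Scarna3b (−1.32 ± 0.55) were not called.

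**Figure D3:**
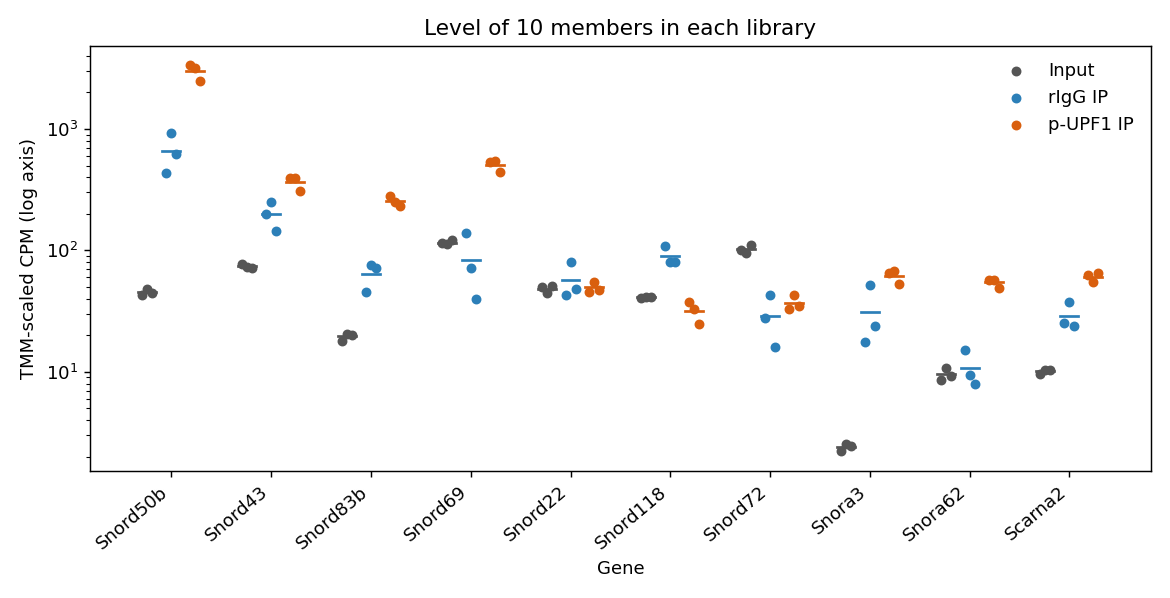
Level of 10 of the members named in the text in each library, in TMM-scaled CPM on a log axis, with a point per library and a bar at the mean of 3 libraries for Input, rIgG IP and p-UPF1 IP. Snord50b rises from 42.6 to 48.5 CPM in Input to 2472 to 3350 CPM in the p-UPF1 IP, whereas Snord72 is highest in Input.

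Over the rIgG IP, which controls for RNA recovered without the p-UPF1 antibody, 54 of 81 C/D, 22 of 36 tested H/ACA and 5 of 7 tested Scarna members were higher in the p-UPF1 IP, beside 18.0% of the 12033 genes tested. Of the members called higher, 29 C/D, 19 H/ACA and 4 Scarna members had under 10 counts over the rIgG IP libraries and passed the filter on low counts only through the p-UPF1 IP, where they are high, so these counts are a description and support nothing. Among members with 10 or more counts in the rIgG IP, 25 of 29 C/D, 3 of 5 H/ACA and 1 of 1 Scarna were called higher, beside 20.7% of the 2306 genes with as many counts there. Snord118 alone was lower, beside 5.31% of all genes tested and 21.6% of those 2306. No H/ACA or Scarna member was called lower by edgeR or DESeq2, nor was any lower at an unadjusted p under 0.05. Most tested members had under 10 counts in the rIgG IP, so their medians are also a description and support nothing. The medians were 2.32 for C/D, 2.33 for H/ACA and 2.89 for Scarna members, against 0.91 for all genes. With members at 0 in the rIgG IP set to their bound, or to no change where the depth gives no bound, they were 2.13, 1.89 and 1.32. For Snora69 and Snora36b, chosen after their values were seen, and for Scarna13 and Scarna9, all counted among the higher members, the rIgG IP held 0 counts and the p-UPF1 IP was at least 12.5-fold, 1.64-fold, 5.73-fold and 1.33-fold higher. RLE factors shifted the median of all genes by −0.29 and moved its calls from 2167 higher and 639 lower to 1456 and 799.

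The rIgG IP itself differed from Input for 9 members. Higher were 5 of 78 tested C/D members (Snord50b, Snord43, Snord83b, Snord32a and Snord118), 1 of 37 H/ACA members (Snora3) and 1 of 9 Scarna members (Scarna2), beside 0.584% of the 16280 genes tested. Lower were 2 C/D members, Snord72 and Snord11, beside 0.313%. No H/ACA or Scarna member was called lower by edgeR or DESeq2, with 0 and 2 lower at an unadjusted p under 0.05. DESeq2 called 18 C/D and 12 H/ACA members higher, so these counts depend on the tool. By transcripts none of the 9 was called (edgeR adjusted p 0.0554 to 0.463), where the log2 fold change was −2.54 for Snord72, −2.51 for Snord11, 3.10 for Snord50b, 2.91 for Snora3 and 1.65 for Snord32a, but under the fold threshold for Snord83b (0.94), Scarna2 (0.778), Snord43 (0.691) and Snord118 (0.407). Scarna2 (edgeR adjusted p = 0.0444) was also not called with the replicate block, without Input replicate 1 or without any of the rIgG IP replicates (edgeR adjusted p 0.059 to 0.255), at log2 fold changes of 1.30 to 1.70 beside 1.505. With a library left out, Snord72 (−1.65), Snord118 (0.971) and Snord32a (2.13) were not called without rIgG IP replicate 1, Snord32a (2.47) and Snord83b (1.42) without rIgG IP replicate 2, and Snord11 (−1.96 to −1.60) without Input replicate 1 or rIgG IP replicate 1 or 2. Snord118 (1.14) and Snord11 (−1.79) were not called with the replicate block, nor Snord11 with RLE factors (−1.485) or library totals (−1.55), although the log2 fold changes stayed past the threshold. Snord43 and Snord83b both lie in introns of Rpl3, with fully unshared sequence. Snord43 was at 76.7, 72.5 and 72.2 CPM in Input, 201, 251 and 144 CPM in the rIgG IP and 398, 397 and 311 CPM in the p-UPF1 IP, rising without overlap from group to group. Snord11, in an intron of Nop58, was at 47.9, 44.8 and 47.0 CPM in Input, 15.1, 9.47 and 16.0 CPM in the rIgG IP and 45.9, 54.8 and 55.4 CPM in the p-UPF1 IP. Only the rIgG IP stood apart, on 6, 2 and 2 counts of Snord11. The medians were 0.47 for C/D, 0.64 for H/ACA and 0.66 for Scarna members, against −0.84 for all genes, and were the same to 2 decimals with bounds, but the H/ACA median was −0.30 in members of mostly unshared sequence. RLE factors and library totals shifted the median of all genes by 0.28 and 0.22, and moved its calls from 95 higher and 51 lower to 120 and 27, and 113 and 32. The 3 comparisons share libraries, so their values are given side by side only.

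Fold changes of members and of their host genes were not ordered alike. Across 120 pairs of member and host (87 hosts), the Spearman correlation of their log2 fold changes over Input was 0.002, a description across genes that share libraries and, for many, sequence. The hosts' median was −0.23. For 11 members within 2 genes, the longer gene was taken as the host. With the shorter one, an alternative chosen after seeing the data, the correlation was 0.055 (119 pairs) and the median −0.23. For hosts chosen after their values were seen, Rack1 had −2.70 ± 0.07 while its snoRNA Snord96a had 1.08 ± 0.20, and Gas5 had 3.31 ± 0.12 with 2.69 to 3.74 for its 3 members. The other snoRNA of Rack1, Snord95, had 5.14 ± 0.65, where the Input libraries held 0, 0 and 36 counts and the p-UPF1 IP libraries 133, 135 and 98, so that its size rests on 1 Input library. None of these 5 snoRNAs has a window unshared with its host. Within classes, the same fold change had a Spearman correlation with length of −0.24 in C/D (n = 81) and −0.02 in H/ACA members (n = 38).

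The mRNAs of proteins that make, bind or trim snoRNAs mostly were not called. Of 28 listed genes that were tested, 1 was higher and 4 were lower in the p-UPF1 IP over Input, with a median of −0.13, beside 17.2% higher and 26.5% lower of all genes. The exception was the C/D core gene Nop56, at 2.69 ± 0.08 (edgeR adjusted p = 1.81e-09), which also hosts snoRNAs, while the core genes Snu13 (−2.62 ± 0.12) and Nop10 (−2.55 ± 0.32) and the assembly factors Znhit3 (−1.68 ± 0.29) and Naf1 (−1.04 ± 0.14) fell. Over the rIgG IP, 4 were higher and 1 was lower, beside 18.0% and 5.31% of all genes, but 3 of the 4 had under 10 counts in the rIgG IP and passed the filter only through the p-UPF1 IP, so these counts are a description and support nothing.

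Other small structured RNAs, a list that holds some snoRNAs outside the name rule such as U3, moved in both directions. Of 17 tested over Input, 6 were higher, 7 lower and 4 not called, beside 17.2% higher and 26.5% lower of all genes. Over the rIgG IP, 5 were higher, 1 of them with 0 counts in the rIgG IP, and 10 lower (18.0% and 5.31% of all genes), and in the rIgG IP over Input 6 were higher (0.584% of all genes). The higher RNAs included U3, a C/D snoRNA listed under Rnu3a (2.25 ± 0.14) and Rnu3b1 (1.97 ± 0.13), the ribonucleoprotein RNA Rmrp (2.00 ± 0.10) and U7, the RNA of histone pre-mRNA processing (Rnu7, at 60.2 CPM in Input, 807 CPM in the rIgG IP and 1956 CPM in the p-UPF1 IP). The remaining higher ones were Rnu73b, another snoRNA (2.72 ± 0.15), and Terc (2.30 ± 0.28). Rnu7 was also called higher in the rIgG IP over Input, at 3.76 ± 0.19, and had 1.505 ± 0.22 in the p-UPF1 IP over that control. The lower ones included Rn7sk (−3.12 ± 0.09) and the Y RNAs Rny1 (−5.09 ± 0.12) and Rny3 (−3.56 ± 0.19). Genes outside the name rule that are annotated as snoRNA or scaRNA had 133 higher and 11 lower of 202 tested, with a median of 2.54.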

How the data were processed

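RIP-seq libraries of N2A cells (3 Input, 3 rIgG IP, 3 p-UPF1 IP) were analysed. Reads had been cleaned with fastp and aligned to GRCm38 with STAR. The authors deposited the estimated counts that Salmon 0.13.1 gave for each transcript, unscaled, and the values were already whole, so that none were rounded here.

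Counts were summed per gene symbol. Each pair of groups was compared on its 6 libraries with edgeR 4.0.16 (TMM, quasi-likelihood test) in R 4.3.3, for genes with a summed count of at least 10. A gene was called where the adjusted p (Benjamini-Hochberg, over all genes) was under 0.05 and the absolute log2 fold change exceeded 1. In data simulated from these libraries, a larger share of calls was false than this threshold states, above all in the comparisons with the rIgG IP, so calls near it are less certain than their adjusted p. Far fewer genes were changed in the simulation than were called in either comparison of the p-UPF1 IP. Its share of false calls therefore need not hold there. CPM values were scaled by TMM over 9 libraries. A fold against a group at 0 was computed against 3 counts over the group.

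The members and lists were chosen with earlier results of these data known. Genes named are the 5 members of each of the C/D and H/ACA classes with the highest mean CPM, the 4 called with the largest change over Input in each direction and class (mean count of at least 20), every Scarna member, the U8, U13, U14, U17, Snord22, Snord115 and Snord116 RNAs, and members called or most counted in the rIgG IP; any other was chosen after its values were seen. Coordinates and sequences came from GENCODE M21; the study used M22 of the same build. The results were recomputed with DESeq2 1.42.0, with library totals or RLE factors, filterByExpr, no filter, all 9 libraries, the replicate number as a block, transcripts, no minimum fold, other sets of members and leaving out each library.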

Additional observations from a re-analysis of the deposited data

How the results depend on the processing

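In the p-UPF1 IP over Input, higher members numbered 61 to 63 C/D, 31 H/ACA and 5 Scarna with a library left out, 53, 29 and 4 by transcripts, 58, 31 and 5 with no filter, 62, 30 and 5 by filterByExpr, and 66, 32 and 5 with library totals or with no minimum fold. Lower C/D members numbered 2 by transcripts and 5 with no minimum fold, and 1 to 2 with a library left out (2 without p-UPF1 IP replicate 3). Lower Scarna members numbered 0 to 1 (1 without Input replicate 1). Over the rIgG IP, DESeq2 called 47 C/D, 16 H/ACA and 4 Scarna members higher, filterByExpr gave 49, 17 and 4, RLE factors 50, 17 and 4 and transcripts 49, 17 and 5, 0 C/D members were lower by transcripts (Snord118 at −0.829, edgeR adjusted p = 0.0999), and with a library left out higher members numbered 45 to 54 C/D, 15 to 23 H/ACA and 3 to 5 Scarna (3 without rIgG IP replicate 1). The cause was not tested.

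The rIgG IP over Input depended most on processing. Higher C/D members numbered 18 by DESeq2, 11 by filterByExpr, 11 with no filter and 0 by transcripts, and 3 to 12 with a library left out (12 and 8 without Input replicates 2 and 3, 3 without rIgG IP replicate 2). Lower C/D members numbered 1 with RLE factors, 1 with library totals, 4 with no filter and 0 by transcripts, and 0 to 3 with a library left out (0 without rIgG IP replicate 1, 1 without Input replicate 1 or rIgG IP replicate 2). Higher H/ACA members numbered 12 by DESeq2, 2 with RLE factors, 4 by filterByExpr, 4 with no filter and 0 by transcripts, and 1 to 4 with a library left out (4 and 3 without Input replicates 2 and 3, 2 without rIgG IP replicate 1). Higher Scarna members numbered 0 by transcripts and 0 to 1 with a library left out (0 without Input replicate 1 or any rIgG IP replicate). The cause of each change was not tested.

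The log2 difference of the C/D to H/ACA ratio in the p-UPF1 IP over Input was −0.53 without the most-counted member of each class (Snord50b and Snora75), −0.31 without the 5 most counted, −0.26 in members of mostly unshared sequence and −0.054 with counts divided by length. Over the rIgG IP it was 0.22 and 0.39 without those members and 0.00 (−0.004) in unshared sequence, and in the rIgG IP over Input −0.76 and −0.70 without them and −0.14 with counts divided by length. With a library left out it was −0.24 to −0.14, 0.03 to 0.14 and −0.33 to −0.21.

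The median log2 fold change of H/ACA members in the rIgG IP over Input was −0.30 in members of mostly unshared sequence. Of the named members, values of the p-UPF1 IP over Input changed sign only where they had not been called: Snord118 by library totals (0.006), Snord11 by transcripts (−0.17), Snord14c by transcripts (−0.14), Snord22 by transcripts (−0.30), with no filter (−0.075) and with a library left out (−0.052 to 0.09, below 0 without Input replicate 2 or p-UPF1 IP replicate 2), and, with a library left out, Scarna3a (−0.43 to 1.10, below 0 without p-UPF1 IP replicate 3) and Scarna8 (−0.33 to 0.92, below 0 without p-UPF1 IP replicate 2). Scarna6 was no longer called by transcripts (0.85), and Scarna3b was called without Input replicate 1 (−1.57).

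With the replicate number as a replicate block, 62 C/D, 31 H/ACA and 5 Scarna members were higher than in Input in the p-UPF1 IP, 52, 17 and 4 were higher than in the rIgG IP, and in the rIgG IP over Input 1 C/D member was lower and 0 Scarna members were higher. Same-numbered libraries deviated with a mean correlation of 0.031, −0.019 and −0.008 in the 3 comparisons, and no source used here says whether the numbers pair cultures.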
